A study of Homo sapiens with 7 samples.

Results

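G1 cyclins, their kinases and the inhibitors of these kinases were followed in MDA-MB-231 cells with lowered APEX1 transcript and in the parent line. The set comprised 10 genes, chosen by symbol from the 57773 rows of the gene table: the cyclins CCND1, CCND3, CCNE1 and CCNE2, the kinases CDK2, CDK4 and CDK6, the inhibitors CDKN1A and CDKN1B, and the transcription factor E2F1. All 10 were found, each under 1 gene identifier, and all 10 passed the filter on low counts. The study concerned the base excision repair enzyme APE1, its binding to G-quadruplexes (folds of DNA rich in guanine) and the spread of triple-negative breast cancer. MDA-MB-231 is an established triple-negative breast cancer line. RNA-seq libraries comprised 2 labelled KD and 3 labelled parent, with no drug, dose or time given for either group. The labels do not spell out KD, do not say how many clones were used, and describe in their protocol APE1-knockout cells that carried wild-type or mutant APE1 on a doxycycline-inducible lentiviral vector and were selected with blasticidin. They do not say whether the KD or the parent libraries carried that vector or received doxycycline.

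In the G1 phase, D-type cyclins bind CDK4 and CDK6, and the active kinases phosphorylate the retinoblastoma protein, which otherwise holds E2F factors inactive. Freed E2F factors switch on cyclin E and the genes of DNA replication, and cyclin E with CDK2 completes the phosphorylation of the retinoblastoma protein. The proteins p21 (CDKN1A) and p27 (CDKN1B) inhibit cyclin E with CDK2, and the INK4 proteins block CDK4 and CDK6. Cyclin D1 is a common oncogene product of breast cancer, and inhibitors of CDK4 and CDK6 are used against hormone receptor-positive disease.

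Libraries held 14601078 to 18049386 counts. APEX1, the gene for APE1, stood at 43.3 and 48.3 CPM (the count scaled to the size of its library with TMM factors) in KD replicates 1 and 2, and at 124, 132 and 135 CPM in parent replicates 1, 2 and 3, so that its counts follow the labels. Among markers of the line, VIM was at 2147 to 2381 CPM, ESR1 had 0 counts in each library and PGR had at most 2 counts in a library, whereas KRT8 and ERBB2, listed as low, were at 573 to 675 and 122 to 166 CPM. The 8 markers high in MDA-MB-231 summed to 9980 and 10580 CPM in KD and 10737 to 12000.2 CPM in parent, and the 8 low markers to 885 and 891 CPM in KD and 752 to 776 CPM in parent. These sums hold changes in both directions: of the high markers 4 fell and 1 rose, with log2 fold changes of -1.57 for PLAU and 1.16 for FN1, and of the 5 low markers tested 3 rose, with 1.13 for CDH1. Among 11 markers of other cell types, PTPRC, CD3E, VWF, ALB and DCN were at 0 in each library, and PECAM1 was not analysed here. The list summed to 130 and 131 CPM in KD and 101 to 123 CPM in parent, most of it from CD68 (128 and 129.6 CPM against 96.2 to 118). The astrocyte marker GFAP, the 1 called gene of that list, went the other way, from 4.58 to 5.37 CPM in parent to 0.880 and 1.15 CPM in KD (edgeR adjusted p = 0.000752). Whether these differences play a part in the results was not tested. In bulk RNA, fewer cells in a phase of the cycle and less transcript per cell cannot be told apart. KD and parent were compared gene by gene with edgeR's quasi-likelihood test across 16198 genes, and a gene was called at a Benjamini-Hochberg adjusted p of 0.05. Whether the replicates were grown as separate cultures is not given, and p-values therefore reflect the spread of these 5 libraries alone, which may be technical.

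Of the 10 genes, 3 fell in KD and none rose: CDK6, CCND1 and CDKN1A. The share of all tested genes called was 21.5%, of which 12.4% of tested genes were lower and 9.15% higher in KD, so 3 of 10 is not read as a result about the set. On leaving out parent replicate 1, 2 or 3 the share of all tested genes called was 21.2%, 12.6% or 16.9%, while the set stayed at 3 of 10. With the replicate number as a block the share was 24.3%, and 4 of 10 were called. These counts too are not read as a result about the set. The median log2 fold change of the 10 was -0.08, against 0.00 over all tested genes. The KD and parent libraries did not overlap in 6 of the 10 genes, 5 of them lower and 1 higher in KD. Over all tested genes 51.4% did not overlap, 26.1% lower and 25.3% higher in KD, so the count of 6 too is close to the background.

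**Figure D1:**
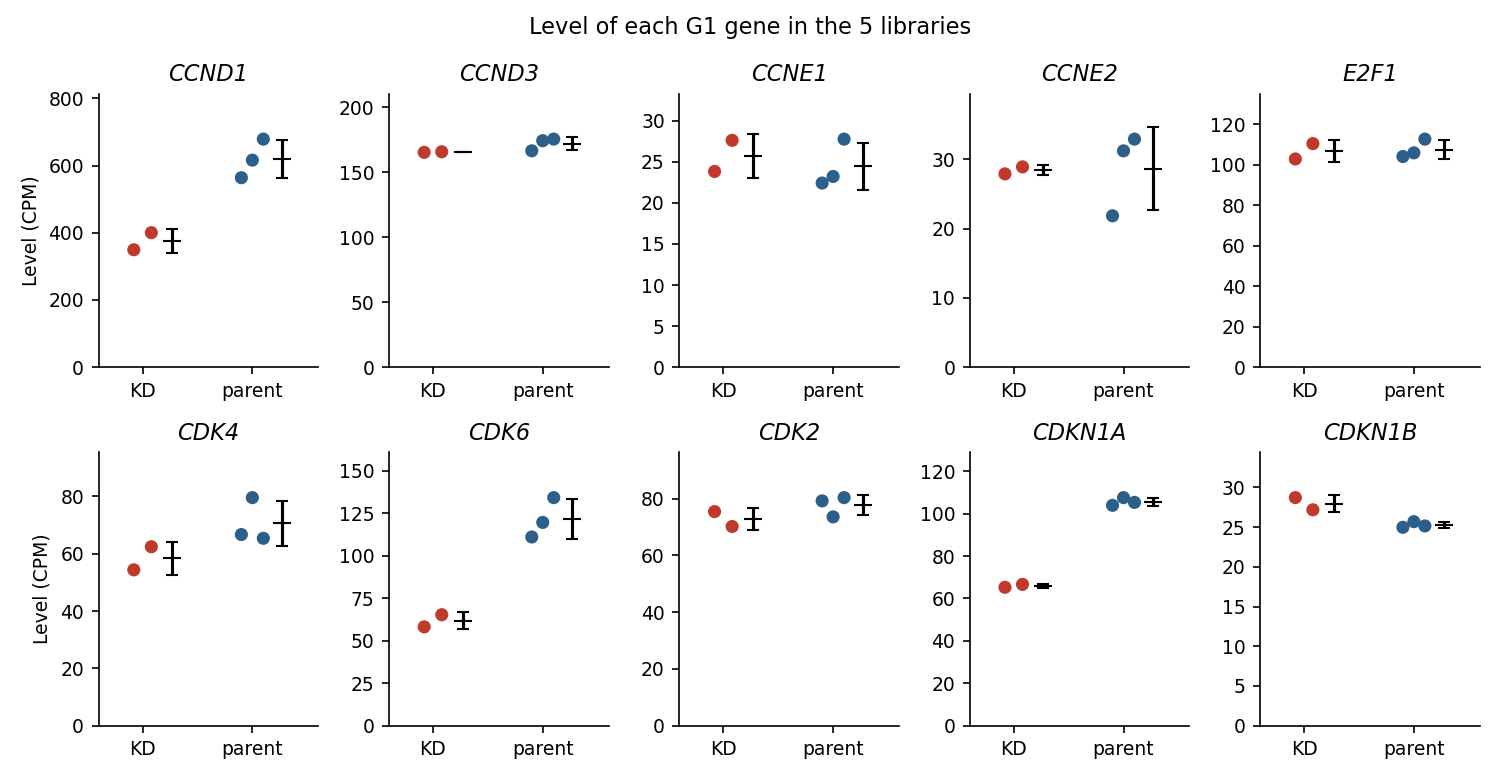
Level of each of the 10 genes in CPM (y axis, from 0, a separate scale for each gene) in the 2 KD libraries (red) and the 3 parent libraries (blue), with the mean and SD in black beside the points. CCND1, CDK6 and CDKN1A lie below the whole parent range in both KD libraries with clear gaps, while CCNE1, CCNE2, CDK2 and E2F1 overlapped.

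Among the D-type cyclins, CCND1 fell and CCND3 did not pass the test. CCND1 (ENSG00000110092), the gene for cyclin D1, stood at 349 and 400.5 CPM in KD replicates 1 and 2, and at 564, 616 and 679 CPM in parent replicates 1, 2 and 3. Both KD libraries lay below each parent library, and KD replicate 1 and parent replicate 3 were the extremes. The means were 375 ± 36.1 CPM (SD, n = 2) and 619.8 ± 57.5 CPM (SD, n = 3), a log2 fold change of -0.72 ± 0.0943 (SE, 95% interval -0.95 to -0.50, edgeR adjusted p = 0.00254). CCND3 (ENSG00000112576), the gene for cyclin D3, stood at 165 and 166 CPM in KD and at 166, 174 and 175 CPM in parent replicates 1, 2 and 3. Its groups nearly touched, and its log2 fold change of -0.06 ± 0.0462 had an interval of -0.17 to 0.05 (edgeR adjusted p = 0.443), which excludes a fall of the size measured for CCND1. The remaining D-type gene, CCND2, had no counts in KD and 5, 4 and 4 counts in parent replicates 1, 2 and 3, and was not tested.

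Of the kinases that the D-type cyclins bind, CDK6 fell by the most of the 10 genes. CDK6 (ENSG00000105810) stood at 58.1 and 65.2 CPM in KD replicates 1 and 2, against 111, 119.5 and 134 CPM in parent replicates 1, 2 and 3. The highest KD library was below the lowest parent library, and the KD mean was 50.7% of the parent mean (61.7 ± 5.06 against 122 ± 11.7 CPM). The log2 fold change was -0.98 ± 0.0964 (SE, 95% interval -1.21 to -0.75, edgeR adjusted p = 0.000834), and 5.40% of all tested genes had a lower one. CDK4 (ENSG00000135446) stood at 54.4 and 62.4 CPM in KD and at 66.7, 79.6 and 65.4 CPM in parent replicates 1, 2 and 3. Its groups did not overlap, but KD replicate 2 and parent replicate 3 were close, and the log2 fold change of -0.27 ± 0.109 did not pass the test (95% interval -0.53 to -0.01, edgeR adjusted p = 0.127). With the replicate number as a block it passed, at -0.32 (edgeR adjusted p = 0.0194). CDK4 overlaps TSPAN31 in the RefSeq annotation of GRCh38.p14, and since the use of strand is not given in the sources used here, reads from the shared stretch cannot be told apart. TSPAN31 had a log2 fold change of 0.40 (edgeR adjusted p = 0.123). The same limit holds for CDK6, which overlaps the non-coding genes CDK6-AS1 and LOC112268009, and for CDKN1A, which overlaps DINOL. It holds too for CCND3, which overlaps the non-coding gene LOC105375059. Values of these non-coding genes were not analysed here.

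CDK2 (ENSG00000123374), the kinase partner of cyclin E, stood at 75.4 and 70.2 CPM in KD and at 79.2, 73.6 and 80.4 CPM in parent replicates 1, 2 and 3. KD replicate 1 lay within the parent range, and the log2 fold change was -0.09 ± 0.0688 (95% interval -0.26 to 0.07, edgeR adjusted p = 0.382). The E-type cyclins overlapped as well. CCNE1 (ENSG00000105173) stood at 23.8 and 27.6 CPM in KD and at 22.4, 23.2 and 27.8 CPM in parent replicates 1, 2 and 3, with a log2 fold change of 0.07 ± 0.116 (95% interval -0.20 to 0.35, edgeR adjusted p = 0.715). CCNE2 (ENSG00000175305) stood at 27.9 and 28.9 CPM in KD and at 21.8, 31.2 and 32.9 CPM in parent replicates 1, 2 and 3. Parent replicate 1 was low for CCNE2 and both KD libraries fell inside the parent range, so that the parent SD was 20.8% of its mean, the widest relative spread of the 10 genes. The log2 fold change of CCNE2 was -0.01 ± 0.165 (95% interval -0.41 to 0.38, edgeR adjusted p = 0.965), a wide interval. CCNE2 overlaps INTS8 and NDUFAF6 in RefSeq, with the same limit on strand.

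Of the 2 inhibitors of the CIP/KIP family in the set, CDKN1A fell and CDKN1B did not pass the test. CDKN1A (ENSG00000124762), the gene for p21, stood at 65.3 and 66.7 CPM in KD replicates 1 and 2, and at 104, 108 and 105 CPM in parent replicates 1, 2 and 3. The libraries of a group were close to each other, with an SD of 1.48% of the mean in KD and 1.74% in parent, and the groups were well separated. The log2 fold change was -0.68 ± 0.0528 (SE, 95% interval -0.80 to -0.55, edgeR adjusted p = 0.000316), and KD held 62.5% of the parent level. CDKN1B (ENSG00000111276), the gene for p27, stood at 28.7 and 27.2 CPM in KD and at 24.98, 25.7 and 25.1 CPM in parent replicates 1, 2 and 3. Both KD libraries were above each parent library, but the log2 fold change of 0.15 ± 0.0633 did not pass the test (95% interval -0.01 to 0.30, edgeR adjusted p = 0.154).

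E2F1 (ENSG00000101412), the factor that the retinoblastoma protein restrains, was at almost the same level in both groups. It stood at 103 and 110.4 CPM in KD and at 104, 106 and 113 CPM in parent replicates 1, 2 and 3. The ranges overlapped, and the log2 fold change was -0.01 ± 0.0606 (95% interval -0.16 to 0.13, edgeR adjusted p = 0.914).

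**Figure D2:**
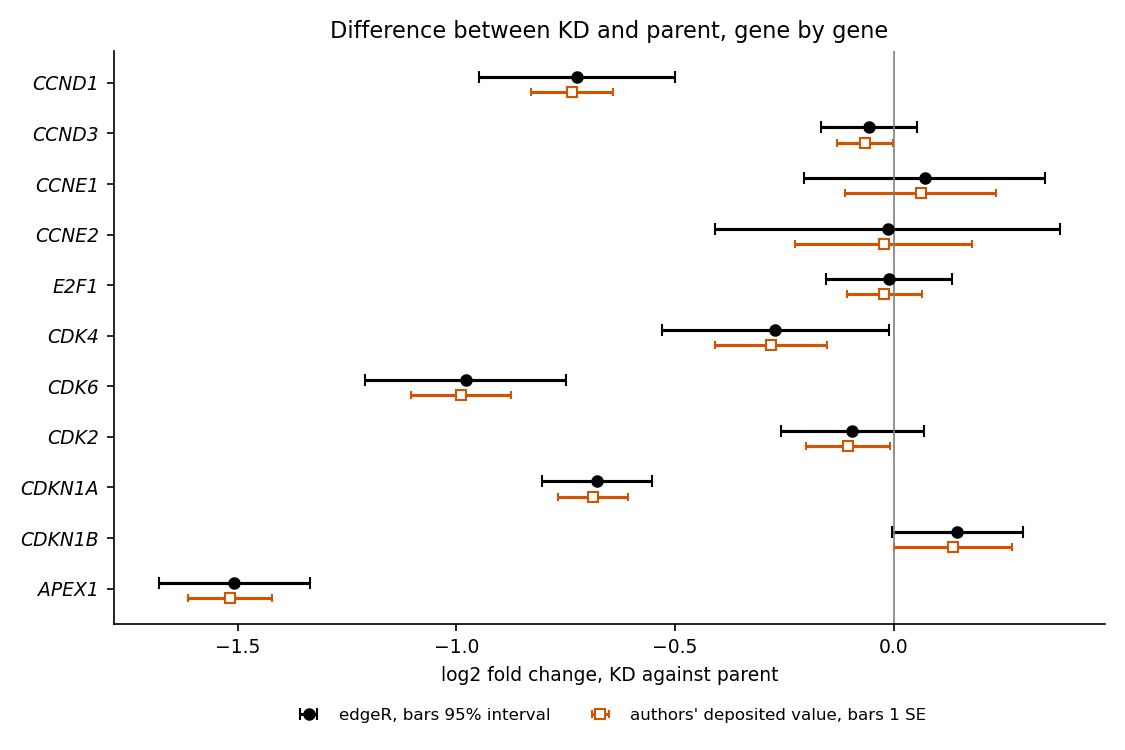
Log2 fold change of KD against parent (x axis) for the 10 genes and APEX1: filled circles are edgeR values with 95% intervals, open squares the authors' deposited values with 1 SE. The intervals of CCND1, CDK6, CDKN1A and APEX1 lie far below 0, that of CDK4 ends just below 0, and those of the other 6 genes cross 0.

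The authors' deposited table, whose columns are those of DESeq2, gave the same signs for the 10 genes and passed the same 3 at an adjusted p of 0.05. In the authors' deposited table CDK6 had a log2 fold change of -0.99 with an adjusted p of 5.7e-16, CCND1 -0.73 with 3.1e-13 and CDKN1A -0.69 with 6.7e-16. The largest of the others in the authors' deposited table was CDK4, at -0.28 with an adjusted p of 0.148. The DESeq2 run among the alternative settings returned these same values for the 10 genes, so it is not a check separate from the authors' result. The 3 calls were kept under each of the 10 alternative settings, with edgeR or DESeq2 adjusted p of at most 0.0211 for CCND1, 0.00958 for CDK6 and 0.00459 for CDKN1A. The log2 fold change ranged from -0.83 to -0.63 for CCND1, from -1.07 to -0.90 for CDK6 and from -0.70 to -0.66 for CDKN1A.

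Ratios within a library do not depend on how libraries were scaled, and they separated the groups for 3 of the 4 gene pairs that were compared. CCND1 had 2.12 and 2.42 counts for each count of CCND3 in KD, and 3.39, 3.54 and 3.87 in parent replicates 1, 2 and 3. CDKN1A had 2.27 and 2.45 counts for each count of CDKN1B in KD, and 4.16, 4.19 and 4.19 in parent. CDK4 had 0.936 and 0.957 counts for each count of CDK6 in KD, and 0.601, 0.666 and 0.487 in parent replicates 1, 2 and 3. The KD minus parent difference of the log2 ratio was -0.67 for CCND1 to CCND3, -0.82 for CDKN1A to CDKN1B and 0.71 for CDK4 to CDK6. In each of these 3 pairs both KD libraries lay outside the parent range, and the two-sided exact permutation test gave p = 0.1, the smallest that 2 against 3 libraries allow (0.133 adjusted over the 4 pairs). Each of the 3 pairs sets a called gene against one that was not called, so the ratios are not separate support for the 3 calls. The share of all gene pairs that separate was not computed, and 51.4% of single tested genes did not overlap. The ratio of CCNE1 to CCNE2 overlapped, at 0.854 and 0.956 in KD and 1.03, 0.744 and 0.844 in parent, with a difference of 0.07 in log2 (exact permutation p = 0.8). These ratios are of counts and are not corrected for transcript length, so they show how pairs differ between groups and not which gene of a pair is more abundant.

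**Figure D3:**
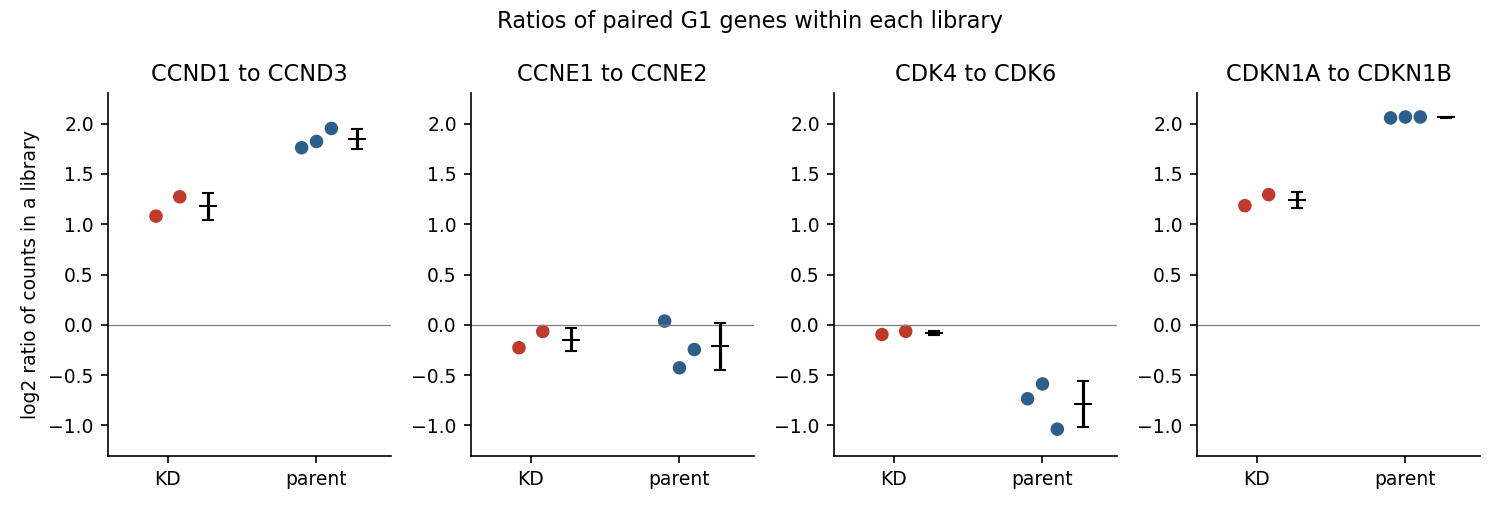
Log2 ratio of the counts of paired genes within each library (y axis, same scale in all panels), for KD (red) and parent (blue), with mean and SD in black. KD libraries lie below parent for CCND1 to CCND3 and for CDKN1A to CDKN1B, above parent for CDK4 to CDK6, and among them for CCNE1 to CCNE2.

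The sequence just upstream of the start was looked at for the G-rich pattern that gives the study its subject, 4 runs of GGG with gaps of 1 to 7 bases on either strand. RefSeq promoters of GRCh38.p14 were in the table for 7 of the 10 genes, with 10 starts in all, and not for CCND1, CCNE2 and CDK2. The counts rest on hg19, so only the sequences are taken from this build. In the 250 bases before the start, 23.3% of the 35116 promoters of the table hold the pattern. It was found at 6 of the 10 starts: at the 3 of CCND3, at that of CCNE1, at that of CDKN1A and at the second of the 2 starts of CDK6. CDK4, CDKN1B, E2F1 and the other start of CDK6 had no match in this window. The next 3 sequences show the pattern in capitals, on either strand, in 2 genes that fell and in CCNE1, which did not pass the test and has the most bases in the pattern before any 1 start, 71 before its single start against 66 and 25 before the starts shown for CDK6 and CDKN1A:
CDK6 (second start), chr7:92833960-92834209, - strand: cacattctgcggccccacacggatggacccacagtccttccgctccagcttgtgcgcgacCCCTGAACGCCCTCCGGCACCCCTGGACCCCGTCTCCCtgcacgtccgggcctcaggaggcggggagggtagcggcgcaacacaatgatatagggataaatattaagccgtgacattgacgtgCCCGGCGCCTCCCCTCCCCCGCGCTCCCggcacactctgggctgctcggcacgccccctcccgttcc
CDKN1A, chr6:36678464-36678713, + strand: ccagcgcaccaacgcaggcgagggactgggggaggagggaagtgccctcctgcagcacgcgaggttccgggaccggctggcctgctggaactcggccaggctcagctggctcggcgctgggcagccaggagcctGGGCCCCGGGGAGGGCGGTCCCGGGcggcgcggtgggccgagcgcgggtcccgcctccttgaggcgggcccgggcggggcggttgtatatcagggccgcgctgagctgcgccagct
CCNE1, chr19:29811741-29811990, + strand: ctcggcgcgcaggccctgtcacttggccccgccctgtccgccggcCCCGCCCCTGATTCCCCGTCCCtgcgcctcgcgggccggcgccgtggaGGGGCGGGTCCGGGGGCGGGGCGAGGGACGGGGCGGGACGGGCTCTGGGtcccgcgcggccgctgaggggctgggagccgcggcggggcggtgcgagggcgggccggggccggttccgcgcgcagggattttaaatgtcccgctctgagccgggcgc
A match is a description of the letters, and the binding of APE1 was not analysed here.

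CDK4 and E2F1 are shown for sites of factors that are known to act on them. CDK4 is a described target of MYC, which binds the E-box CACGTG, and E2F1 is driven in part by E2F factors themselves. In the 250 bases before the start, CDK4 has 3 matches to CACGTG, a motif that reads the same on both strands and that 6.34% of the promoters hold. E2F1 has 1 match to TTTGGCGC, held on either strand by 0.55% of the promoters, and no match to TTTCCCGC, held by 1.39%. The matches are in capitals:
CDK4, chr12:57752311-57752560, - strand: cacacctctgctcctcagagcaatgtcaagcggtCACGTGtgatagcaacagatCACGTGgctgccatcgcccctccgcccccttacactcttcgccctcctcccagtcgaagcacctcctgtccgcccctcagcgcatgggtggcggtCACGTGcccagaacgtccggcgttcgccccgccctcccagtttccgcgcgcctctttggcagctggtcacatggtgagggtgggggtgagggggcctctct
E2F1, chr20:33686386-33686635, - strand: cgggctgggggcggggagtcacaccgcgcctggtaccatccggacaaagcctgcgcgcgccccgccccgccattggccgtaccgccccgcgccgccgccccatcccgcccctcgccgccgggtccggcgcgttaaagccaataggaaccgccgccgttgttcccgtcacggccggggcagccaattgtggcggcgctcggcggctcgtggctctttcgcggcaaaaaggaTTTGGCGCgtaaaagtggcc
None of the 10 starts held the AP-1 site TGACTCA or the element TGACGTCA in this window, which 4.20% and 1.65% of the promoters hold. CCND1, CCNE2 and CDK2 have no start among these 10, so their promoters were not searched. GC boxes, GGGCGG on either strand and held by 42.6%, were found at 8 of the 10 starts, from 1 match before CDKN1B to 7 before CCNE1, and not at the second start of CDK6 or 1 start of CCND3.

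The rest of the G1 network was described by lists of genes written for its roles, whose counts are to be read against the 21.5% of all tested genes that were called. Of 10 other G1 cyclins, CDKs and their activators, 8 were tested, and 2 fell, none rose and 6 did not pass, with a median log2 fold change of -0.12 against 0.00 over all tested genes. CCNH, the cyclin of the CDK-activating kinase, stood at 17.7 and 18.4 CPM in KD and at 25.8 to 28.2 CPM in parent (log2 fold change -0.58, edgeR adjusted p = 0.00248), while the other subunits of that kinase, CDK7 and MNAT1, did not pass (log2 fold changes of -0.08 and -0.16). The germline cyclin gene CCNA1 had no counts in KD and 3.13 to 4.41 CPM in parent, at least 39.5-fold lower against 3 counts over the KD group, a bound that covers counting error only, and with CCNA1 at this bound the median of the list is the same. The chaperone gene CDC37, which serves CDK4, was at 380.4 and 378 CPM on average (edgeR adjusted p = 0.914).

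Of 6 other genes listed as CDK inhibitors, 4 were tested and 1 rose, with a median of 0.26. It was CDKN3, whose product is a phosphatase of CDK2 rather than a stoichiometric inhibitor, at 87.6 and 97.4 CPM in KD and 71.7 to 73.4 CPM in parent (log2 fold change 0.35, edgeR adjusted p = 0.0103). The call was lost without KD replicate 2 (edgeR adjusted p = 0.0568) and, just above the threshold, without parent replicate 2. CDKN1C, a further gene of the CIP/KIP family, stood at 8.26 and 7.24 CPM in KD replicates 1 and 2. In parent replicates 1, 2 and 3 it stood at 6.58, 4.78 and 4.53 CPM. Its groups did not overlap, and its log2 fold change of 0.55 was the highest of the 4 tested. It did not pass the test (edgeR adjusted p = 0.0873). The INK4 genes CDKN2C and CDKN2D did not pass, at 70.8 ± 4.23 against 63.1 ± 2.28 CPM and 28.5 ± 0.663 against 28.4 ± 0.828 CPM. CDKN2A and CDKN2B, the genes of the p16 and p15 inhibitors, had 0 counts in each of the 5 libraries, where 3 counts over a group correspond to 0.0988 CPM in KD and 0.0623 CPM in parent. MDA-MB-231 is known to lack the CDKN2A locus. In RefSeq order the 23 protein-coding genes of the table from IFNB1 to IZUMO3, which hold CDKN2A and CDKN2B, were all at 0. They comprise 16 interferon genes, which are silent in most resting cells, and also DMRTA1, ELAVL2, IZUMO3, KLHL9 and MTAP, a housekeeping enzyme of the methionine salvage pathway. The run was extended on each side up to the first gene with a count, so its length is set by the zeros. Whether the genes beside CDKN2A are absent or silent was not tested. The genes on either side, FOCAD and TUSC1, were detected at 2.51 and 8.11 CPM. MTAP and these neighbours were looked up after the values of CDKN2A were seen.

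Of 9 genes of the retinoblastoma family and the DREAM and MuvB complexes, all were tested, and 2 fell, none rose and 7 did not pass, with a median of -0.09. RB1, the retinoblastoma gene, stood at 67.7 and 73.1 CPM in KD and at 81.6, 94.3 and 90.9 CPM in parent replicates 1, 2 and 3 (log2 fold change -0.34, edgeR adjusted p = 0.0268). RBL1, which encodes p107, had a log2 fold change of -0.28 (edgeR adjusted p = 0.0232). Both groups were separate for these genes, but the calls depended on single libraries. That of RB1 was lost on leaving out KD replicate 1 (edgeR adjusted p = 0.155) or 2 (0.0589), or parent replicate 2 (0.0935) or 3 (0.0664). That of RBL1 was lost on leaving out KD replicate 1 (edgeR adjusted p = 0.131), or parent replicate 2 (0.0827) or 3 (0.0631). MYBL2, the most abundant of the list, averaged 238 CPM over the KD libraries and 207 CPM over the parent libraries (edgeR adjusted p = 0.0965, and 0.0245 with the replicate block).

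Of 9 other E2F and DP factors, 3 fell, none rose and 6 did not pass, with a median of -0.15. The share called was 33.3%, against 21.5% over all tested genes (12.4% lower), and with 9 genes nothing is read from it. E2F7, an atypical E2F that represses E2F target genes, stood at 49.0 and 52.4 CPM in KD and at 70.0, 74.6 and 80.5 CPM in parent replicates 1, 2 and 3 (log2 fold change -0.57, edgeR adjusted p = 0.00385). The dimerisation partner gene TFDP2 had a log2 fold change of -0.36 (edgeR adjusted p = 0.0128) and E2F5 one of -0.47 (0.0218), with separate groups in both. TFDP2 lost its call without KD replicate 1 (edgeR adjusted p = 0.0855) or parent replicate 2 (0.0549). E2F5 lost it without KD replicate 1 (0.0523) or 2 (0.114) and without parent replicate 2 (0.0801) or 3 (0.0513), and by DESeq2 (0.0986). TFDP1, the most abundant of these factors, did not pass at -0.26 (edgeR adjusted p = 0.0935), but passed with the replicate block (0.0268) and without parent replicate 1 (0.0289).

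Of 41 E2F target genes of the G1/S transition, all tested, 2 rose, none fell and 39 did not pass. The share called was 4.88%, against 21.5% over all tested genes (9.15% higher and 12.4% lower). The median log2 fold change was -0.02, and the values ran from -0.30 to 0.30. The 2 that rose were TYMS, thymidylate synthase, at 273 ± 22.1 against 221 ± 15.6 CPM (edgeR adjusted p = 0.0321), and POLA2, a subunit of DNA polymerase alpha, at 34.6 ± 2.94 against 28.8 ± 0.434 CPM (edgeR adjusted p = 0.0421). The call of TYMS was lost without KD replicate 1 (edgeR adjusted p = 0.0574) or 2 (0.204) and without parent replicate 1 (0.0575) or 3 (0.0645), and that of POLA2 without any 1 of the 5 libraries (0.0520 to 0.281). DNMT1, the most abundant of the list, was at 358 ± 33.7 and 374 ± 23.5 CPM (edgeR adjusted p = 0.615).

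The E2F target genes varied together among libraries of the same group. KD replicate 2 was above KD replicate 1 in 40 of 41 of them, and parent replicate 3 was above parent replicate 1 in 41 of 41, against 49.0% and 47.3% of all tested genes. The median of the list, after taking off the mean of each gene, was -0.07 and 0.08 in KD replicates 1 and 2, and -0.09, 0.00 and 0.09 in parent replicates 1, 2 and 3, in log2 CPM. This pattern was not particular to the E2F target genes, nor shared by every list, and its cause was not tested. In the same 2 comparisons 12 and 11 of 12 genes of the S, G2 and M phases were higher. So were 8 and 9 of the 9 other E2F and DP factors, and 7 and 7 of the 9 retinoblastoma family and DREAM genes. Of the 14 tested ubiquitin ligase parts 9 and 6 were higher. Of the 30 tested transcription factors described as acting on CCND1, CDKN1A or CDKN1B, 16 and 12 were higher. The 8 tested other G1 cyclins, CDKs and activators had 5 and 4 higher, and the 4 tested other CDK inhibitors 3 and 2. Of the 10 genes of the set, 8 were higher in KD replicate 2 than in KD replicate 1 and 9 were higher in parent replicate 3 than in parent replicate 1, E2F1, CCND1 and CCNE1 among them. For CCND1 and CDK6 the difference between KD and parent was larger than this spread. These counts were made after the values were seen, and they describe 5 libraries.

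**Figure D4:**
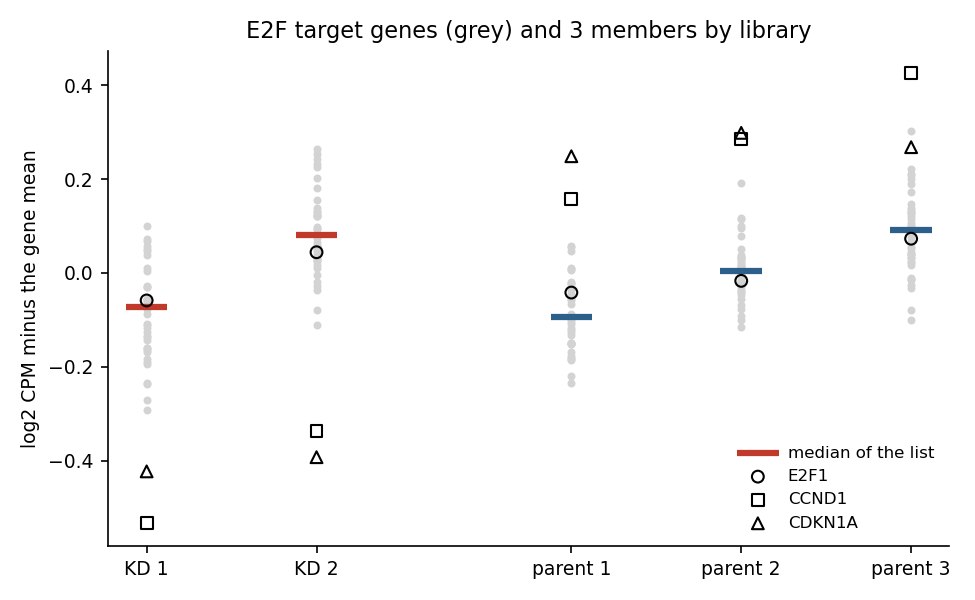
Log2 CPM minus the mean of each gene over the 5 libraries (y axis) for the 41 E2F target genes (grey points, coloured bar at their median) and for E2F1, CCND1 and CDKN1A (open symbols), by library (x axis). The median of the target genes lies between -0.09 and 0.09 and E2F1 stays near it, while CCND1 and CDKN1A are below the target genes in both KD libraries.

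Of 16 parts of ubiquitin ligases that act on G1 cyclins or CDK inhibitors, 14 were tested, and 1 fell, none rose and 13 did not pass, with a median of -0.05. CUL4A, a cullin scaffold, had a log2 fold change of -0.26 (edgeR adjusted p = 0.0215), which did not pass without KD replicate 1 (0.128) or 2 (0.0517) and without parent replicate 2 (0.0655) or 3 (0.0636). Its adaptor DDB1, the most abundant of the list, was at 461 ± 9.04 and 463 ± 4.93 CPM (edgeR adjusted p = 0.954).

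Of 31 transcription factors described as acting on CCND1, CDKN1A or CDKN1B, 30 were tested, and 11 fell, 3 rose and 16 did not pass, with a median of -0.18. The share called was 46.7%, against 21.5% over all tested genes. Some of them were already known to differ in these libraries when the list was written, so nothing is read from this share. MYC, which acts on cyclin D and CDK4 transcription and represses CDKN1A, stood at 68.4 and 74.6 CPM in KD and at 115, 107 and 122 CPM in parent replicates 1, 2 and 3 (log2 fold change -0.68, edgeR adjusted p = 0.00137). The mediators of TGF-beta signalling SMAD2 and SMAD4, which act on CDKN1A, had log2 fold changes of -0.71 (edgeR adjusted p = 0.000959) and -0.78 (0.00135), from 81.9 ± 4.32 and 48.0 ± 0.976 CPM in parent. LEF1, a factor of the WNT pathway that acts on CCND1, had no counts in KD and 8.96 ± 0.333 CPM in parent, at least 90.7-fold lower, and with LEF1 at this bound the median of the list is the same. The 3 genes that rose were CTNNB1, TCF7L2 and STAT3, with log2 fold changes of 0.19, 0.23 and 0.24 (edgeR adjusted p = 0.0327, 0.0436 and 0.0345). These 3 calls were not examined under the alternative settings. The AP-1 subunit gene FOSL2, the most abundant of the list, was at 722 ± 17.5 and 705 ± 19.4 CPM (edgeR adjusted p = 0.658). Among the other AP-1 genes of the list FOSL1, JUN and JUNB fell, with edgeR adjusted p of 0.00245, 0.015 and 0.043, from 324, 156 and 53.2 CPM in parent to 124, 132 and 36.3 CPM in KD. Their calls were not examined under the alternative settings either, and that of JUNB is near the threshold. FOS, at about 1 CPM or less, did not pass (edgeR adjusted p = 0.120).

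Cyclins and kinases of later phases were listed apart. Of 12 genes of the S, G2 and M phases, 3 rose, none fell and 9 did not pass, with a median of 0.15. The share called, 3 of 12, is near the 21.5% over all tested genes and is not a result about the list. AURKA and CDC25B, a mitotic kinase and an activator of CDK1, had log2 fold changes of 0.86 and 0.39 (edgeR adjusted p = 0.000528 and 0.00237). CCNB1, cyclin B1, had one of 0.27 (edgeR adjusted p = 0.0405), a call that was lost without any 1 of the 5 libraries (0.0518 to 0.242). The proliferation marker MKI67 stood at 892 and 1050.3 CPM in KD and at 972, 919 and 1089 CPM in parent (edgeR adjusted p = 0.845).

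**Figure D5:**
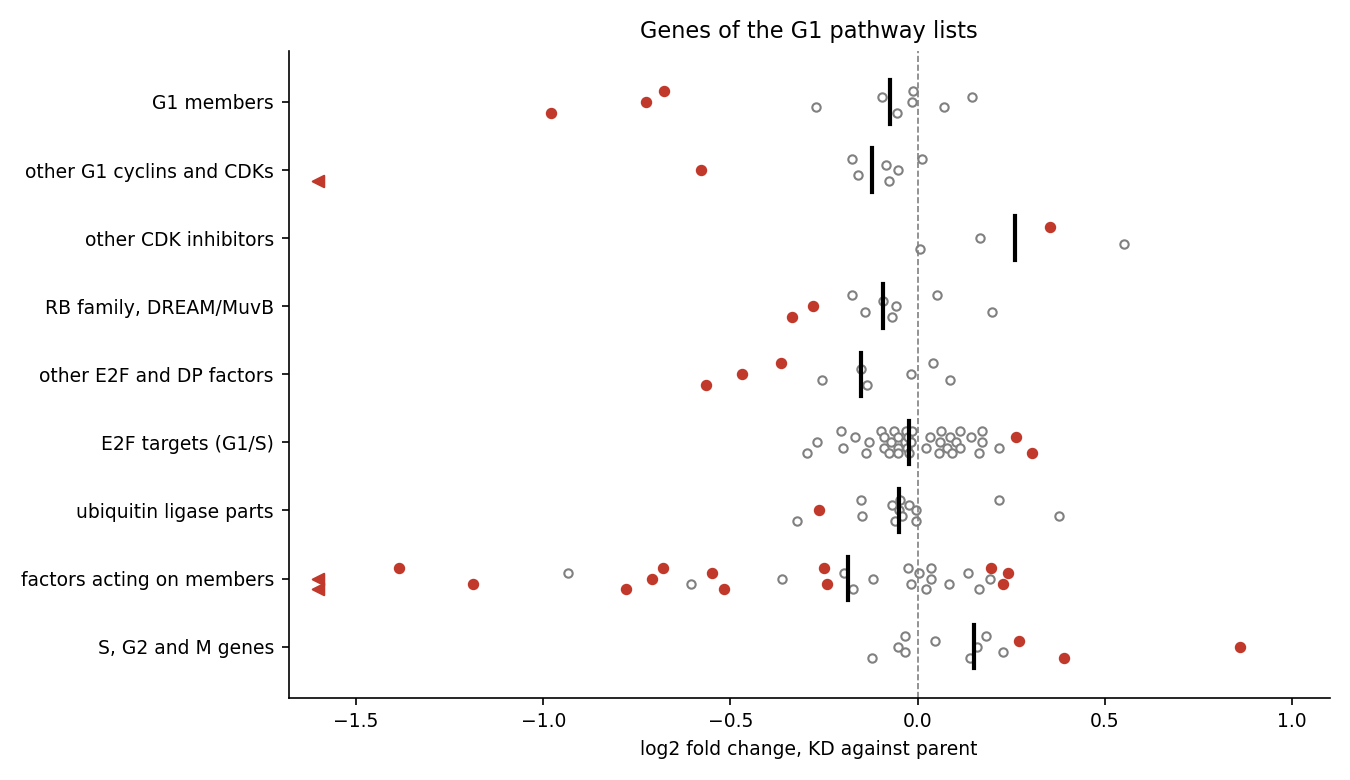
Log2 fold change of KD against parent (x axis) for the tested genes of each list (rows), with red for genes called at an adjusted p of 0.05, grey for the others, a black bar at the median of the list and a dashed line at the median of all tested genes. The E2F targets lie between -0.30 and 0.30, and the triangles at the left edge mark CCNA1, LEF1 and EGR1, whose values lie beyond it.

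The genes most alike in pattern to the 3 that fell were taken from 10270 others with a mean of at least 10 CPM, by the root mean square difference of mean-centred log2 CPM over the 5 libraries. For CCND1 they were MALT1, FIGN and PDLIM3, with differences of 0.0366, 0.0538 and 0.0547, where the median of the candidates was 0.381. FIGN lost its own call without KD replicate 1 (edgeR adjusted p = 0.0998) or parent replicate 2 (0.0573). For CDK6 they were HDAC9, RGL1 and ASB7, at 0.0381, 0.0385 and 0.0416 against a median of 0.497. For CDKN1A they were RP11-20O24.4, ZNRF1 and RP11-592N21.1, at 0.00422, 0.0174 and 0.0293 against a median of 0.347. The closest of 10270 candidates over 5 libraries lie far below the median by selection, so nothing is read from these contrasts. The name table gives the current symbols RPL17P7 and RPL17P39 for the 2 clone-named genes, pseudogenes of a ribosomal protein gene whose counts are uncertain.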

How the data were processed

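RNA-seq was run on MDA-MB-231 cells, and the 2 KD and 3 parent libraries were grouped by title. The authors deposited expected counts per gene, in whole numbers. Per the submitters' processing notes, STAR, DESeq2 and hg19 were used, without versions. How reads were counted, with which annotation and strand setting, is not given in the sources used here. As for the units, the authors' deposited comparison holds, per the file headers, a normalised mean count (a signal), log2 fold changes and their standard errors, the score of each test, and the p-value before and after adjustment. The transcript table and the 2 chromatin immunoprecipitation samples were not used here, and transcripts of the 10 genes were not tested because no table paired them with genes.

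Counts were filtered with filterByExpr (minimum count 10, minimum total 15), which left 16198 genes, and scaled with TMM. KD and parent were compared with edgeR 4.0.16 (R 4.3.3, quasi-likelihood test, a single group term, 3 residual degrees of freedom), and p was adjusted by Benjamini-Hochberg over all tested genes. Standard errors are the log2 fold change divided by the root of F, and 95% intervals are not adjusted for multiple tests. Of symbols with 2 identifiers (RBL1, CKS1B) the one paired with that symbol in the name table was kept. Of the 57773 identifiers, 51996 matched that table. The code was tested on simulated data for KD against parent. Depth was 14601078 to 18049386 counts a library, and floors cover counting error only. Libraries within a group differed beyond sampling noise in every pair (chi-square per degree of freedom from 3.80).

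Alternatives were other scalings, no filter, DESeq2 1.42.0, a replicate block and each library left out. The members and lists were chosen with earlier results of these data known. Named genes were the 10 members, APEX1, up to 4 called genes with the smallest adjusted p and the most abundant gene of each list, CDKN2A, CDKN2B, CCND2, RB1 and the 3 genes most alike in pattern to each called member. CDK7, MNAT1, CDKN1C, CDKN2C, CDKN2D, CTNNB1, TCF7L2, STAT3, EGR1, FOS, FOSL1, JUN, JUNB, GFAP, PLAU, FN1, CDH1, INTS8, NDUFAF6 and TSPAN31 were added after their values were seen.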

Additional observations from a re-analysis of the deposited data

How the results depend on the processing

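The calls of CCND1, CDK6 and CDKN1A, and the absence of a call in the 6 members other than CDK4, held under all 10 alternatives. With the replicate number as a block, which left 1 residual degree of freedom, CDK4 passed at -0.32 (edgeR adjusted p = 0.0194), so that 4 members were called, and 3940 genes were called in all against 3485. Whether equal replicate numbers mark a shared batch is not given in the labels. Across genes, the deviations of same-numbered KD and parent libraries correlated at 0.0868 for number 1 and -0.02 for number 2. With 2 KD libraries their deviations mirror each other, so these correlations cannot settle whether the numbers pair libraries. The block also gave 0.11 for CCNE2, 0.0222 for E2F1 and 0.0344 for MKI67, all opposite in sign to the main value and without a call. With library totals alone, CCNE2, E2F1 and DDB1 turned to 0.0037, 0.0066 and 0.0137, and without the filter CDC37 turned to -0.0019. By DESeq2, 976 genes were higher. With 1 library left out, the log2 fold change ran from -0.0413 to 0.17 for CCNE1, -0.18 to 0.10 for CCNE2, -0.0656 to 0.0359 for E2F1, -0.0502 to 0.0663 for CDC37, -0.0262 to 0.0127 for DDB1, -0.16 to 0.0276 for DNMT1 and -0.16 to 0.078 for MKI67, none of them called, and the log2 ratio of CCNE1 to CCNE2 from -0.0425 to 0.19. All genes called ran from 1823 (without KD replicate 1) to 3383, those higher from 553 to 1413 and those lower from 1270 to 1970, where fewer libraries were fitted. A lone KD library was assumed to vary like the parent libraries. RB1 (0.0520), TYMS (0.0868), POLA2 (0.114) and CCNB1 (0.109) lost their calls without the filter, and POLA2 by DESeq2 (0.250). CDKN3 also lost its call without parent replicate 2, just above the threshold. The causes were not tested. The 95% intervals give the precision that 2 KD and 3 parent libraries allow for a gene, and they are not limits of detection.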
